A study of Homo sapiens with 6 samples.

Results

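MYC and the genes that share its partner MAX were followed in HGC-27 cells after knockdown of ACAT2. The network was taken as 10 genes matched by gene symbol in the deposited expression table of 58735 genes. They are MYC and its paralogues MYCN and MYCL, the shared partner MAX, and the 6 antagonists MXD1, MXD3, MXD4, MXI1, MNT and MGA. Of these, 8 passed the filter used for testing (mean FPKM not under 1 in the shNC or the shACAT2 group), while MYCN and MYCL lay below it and are given as values, with a test only in the fits with a looser filter. FPKM counts fragments relative to gene length and to a total for each library. Gene length here is the union of all annotated exons of a gene, so levels of different genes can be compared only roughly on this scale.

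MYC proteins bind DNA at E-box motifs only as dimers with MAX, and the MYC-MAX dimer activates genes of growth, ribosome production and metabolism. MXD proteins, MXI1 and MNT compete for the same partner and recruit SIN3 and histone deacetylases to repress genes at the same motif, and MGA joins MAX in a variant Polycomb repressive complex. MYC is often gained or overexpressed in gastric carcinoma, and the balance between MYC and its antagonists is usually described as a switch between proliferation and arrest or differentiation.

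The line HGC-27 was established from an undifferentiated gastric carcinoma. Values per library are listed below in the order of the library numbers 1, 2 and 3. Cells were given the vector pSIH-H1-Puro carrying a hairpin RNA that targets ACAT2 (shACAT2), or the control vector pSIH-H1-Puro-shNC (shNC), for 24 h and were then selected with puromycin for 7 days. All libraries therefore come from vector-carrying, puromycin-selected cells of a line labelled as wild type. The study's methods describe the control as empty vector, so it may carry no hairpin. The ACAT2 hairpin is driven by the H1 promoter of the vector, and the labels do not say which ACAT2 hairpin was used or whether cells were pooled or cloned. ACAT2 is the cytosolic thiolase that makes acetoacetyl-CoA from acetyl-CoA, and the comparison was made to find genes that change downstream of it.

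Total RNA was sequenced as 3 libraries per group, described as biological replicates, with 14086416 to 16067486 fragments on genes per library. The totals implied by the deposited FPKM differed from these, with 15182806 for 15867286 fragments in shACAT2-1 and 16212517 for 15082403 in shNC-2. Library-size scaling, which puts the fragments on genes in place of these totals, is given as an alternative. It lowered the log2 fold change of MYC from 0.19 to 0.14. ACAT2 itself had 14.2, 11.7 and 12.7 FPKM in the shNC and 6.19, 5.46 and 6.05 FPKM in the shACAT2 libraries, a log2 fold change of −1.01 (SE 0.10, limma adjusted p = 0.0059), which missed the threshold without shNC-3 (limma adjusted p = 0.0512). The exons of ACAT2 share 26.5% of their length with SOD2, 33.9% with SOD2-OT1 and 9.23% with TCP1, all on the opposite strand, and the strand setting of the counting is not given in the sources used here, so this level is uncertain. Of the controls, shNC-2 and shNC-3 were far closer to each other (chi-square per gene 1.73) than the other pairs within a group (12.1 to 46.0), so n counts libraries here, and the spread of the shNC group may be too small. In shACAT2-3, 7477 genes were detected in no other library, where each of the others had 416 to 657 such genes. In shACAT2-1 genes between 2000 and 4000 bases lay higher (median 0.26 above the shNC mean on the log2 scale) and genes over 8000 bases lower (median −0.17), so results that rest on shACAT2-1 or shACAT2-3 are also given without them.

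In all 6 libraries MYC was by far the most abundant transcript of the network, with a mean of 147 FPKM and 73.4% to 77.7% of the summed FPKM of the 10 genes. MAX followed at a mean of 13.0 FPKM, more than 10 times lower on this scale, which divides each gene by its full exon length. MXD4, the most abundant antagonist, had a mean of 12.6 FPKM and did not stand clearly below MAX, since MAX was the higher of both in 4 of the 6 libraries. MGA and MXI1 came next with 5.56 and 5.35 FPKM and also changed places between libraries, with MGA above MXI1 in 4 of 6. MXD3 (3.54 FPKM) and MNT (3.26 FPKM) could not be ordered, since each was the higher in 3 libraries. MXD1 was the least abundant antagonist at 2.30 FPKM and lay below MNT in 5 of 6 libraries. MYCL (0.945 FPKM) and MYCN (0.364 FPKM) came last in every library, so MYC was the one paralogue with a mean above 1 FPKM.

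**Figure D1:**
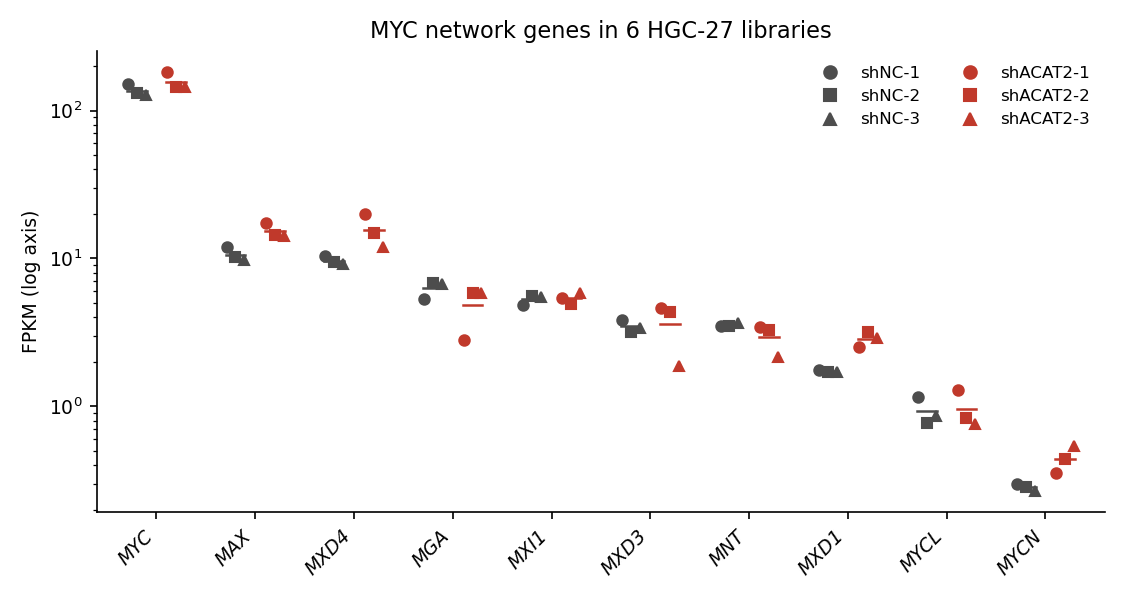
FPKM of the 10 network genes (log axis, genes ordered by mean level) in the 3 shNC and 3 shACAT2 libraries; each symbol is 1 library and the short bars are group means. MYC lies between 127 and 183 FPKM, MYCN below 1 FPKM throughout, and for MAX, MXD4 and MXD1 the 3 shACAT2 libraries lie above the 3 shNC libraries.

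MYC did not pass the test on ACAT2 knockdown. It had 150.3, 132 and 127 FPKM in the shNC and 183, 144 and 144 FPKM in the shACAT2 libraries. The shACAT2-1 value was the highest and the values of the other shACAT2 libraries lay within the shNC range, so the groups overlapped. The means were 136 ± 12.2 and 157 ± 22.6 FPKM (mean ± SD, n = 3), a log2 fold change of 0.19 with a 95% interval from −0.14 to 0.52 (limma adjusted p = 0.452). The MYC level rests on 6426 to 8335 fragments per library. The fold change was 0.08 without shACAT2-1, and between 0.08 and 0.27 over all 14 alternatives, with limma adjusted p from 0.138 to 0.753. MYC has 3001 bases of exon, and its level in shACAT2-1 was 0.42 above the shNC mean on the log2 scale, where genes of similar length had a median of 0.26; the part of that shift in the MYC value was not tested.

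The paralogues were expressed at low levels, with means of 0.364 FPKM for MYCN and 0.945 FPKM for MYCL. MYCN, the paralogue of neural tissue and neuroblastoma, had 0.301, 0.284 and 0.267 FPKM in the shNC libraries and 0.354, 0.439 and 0.538 FPKM in the shACAT2 libraries. The groups did not overlap, but the values rest on 12 to 21 fragments per library. Summed over each group there were 36 fragments in shNC (exact 95% Poisson interval 25.2 to 49.8) and 54 in shACAT2 (40.6 to 70.5), and these intervals, which cover counting error only, overlap. At the rate seen in shACAT2-3 over genes silent elsewhere (0.778 fragments per kilobase, where no other library exceeded 0.081), 2.03 of the 21 fragments of that library would be background. MYCL, the paralogue first found in small-cell lung cancer, had 1.16, 0.768 and 0.859 FPKM in the shNC and 1.29, 0.832 and 0.763 FPKM in the shACAT2 libraries. Its 228 and 227 fragments per group were nearly equal and the groups overlapped. With a filter of 10 fragments per library in place of the FPKM limit, MYCN had a log2 fold change of 0.17 (95% interval 0.02 to 0.32, limma adjusted p = 0.156) and MYCL of 0.02 (−0.26 to 0.30, limma adjusted p = 0.941).

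MAX, the partner that the other members share, was higher in all shACAT2 libraries. It had 11.9, 10.2 and 9.81 FPKM in the shNC and 17.5, 14.5 and 14.1 FPKM in the shACAT2 libraries, and the groups did not overlap. The means were 10.6 ± 1.14 and 15.3 ± 1.84 FPKM (mean ± SD, n = 3), a 1.44-fold difference and a log2 fold change of 0.49 (SE 0.12; 95% interval from 0.20 to 0.78). This missed the threshold over all genes (limma adjusted p = 0.070) and passed it with the replicate number as a block (limma adjusted p = 0.023). The labels do not say that libraries of equal number belong together. It also passed after upper-quartile scaling (limma adjusted p = 0.048), library-size scaling (0.044) and with limma-voom on the recovered fragments (0.039), but in no fit that left out a library. MAX lies on the minus strand of chromosome 14 (GRCh38, 65006174 to 65102695) and its exons add up to 4430 bases. Without shACAT2-1, its log2 fold change was 0.40 (limma adjusted p = 0.082).

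MXD1, the founding MXD protein, induced in many cell types as they leave the cycle and differentiate, was the member that passed the test. It had 1.77, 1.71 and 1.70 FPKM in the shNC and 2.52, 3.20 and 2.89 FPKM in the shACAT2 libraries. The 3 shNC values were nearly equal and all lay below the shACAT2 values. The means were 1.73 ± 0.0383 and 2.87 ± 0.341 FPKM (mean ± SD, n = 3), a 1.66-fold rise and a log2 fold change of 0.50 (SE 0.11; 95% interval from 0.25 to 0.75; limma adjusted p = 0.044). The call was near the threshold and was lost in 9 of the 14 alternatives: with limma adjusted p of 0.120, 0.180 and 0.186 when shNC-1, shNC-2 or shNC-3 was dropped, 0.143 and 0.078 when shACAT2-2 or shACAT2-3 was dropped, 0.179 with the mean of shNC-2 and shNC-3 as 1 library, 0.139 with no filter, 0.076 with upper-quartile factors and 0.067 with library-size factors. The log2 fold change stayed between 0.44 and 0.70 in all of these. MXD1 lies on the plus strand of chromosome 2 (GRCh38, 69897688 to 69942945), and 172 to 338 fragments per library fell on its 6351 exonic bases. It shares 237 of these bases (3.73%) with SNRNP27 on the same strand. Of the 275 fragments in shACAT2-3, 4.94 would be background at the rate of silent genes.

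MXD4, a related repressor, also had higher values in every shACAT2 library. It had 10.4, 9.50 and 9.15 FPKM in the shNC and 20.1, 14.8 and 11.9 FPKM in the shACAT2 libraries. The groups did not overlap, yet the shACAT2 values were spread widely, with shACAT2-1 far above shACAT2-3. From 9.68 ± 0.645 to 15.6 ± 4.13 FPKM (mean ± SD, n = 3), the log2 fold change was 0.61 (SE 0.18; 95% interval from 0.19 to 1.03; limma adjusted p = 0.104). The limma adjusted p was 0.044 with the replicate block, 0.048 with limma-voom and 0.042 without shACAT2-3. Without shACAT2-1, the log2 fold change was 0.42 (limma adjusted p = 0.088). MXD4 lies on the minus strand of chromosome 4 (GRCh38, 2247432 to 2262294).

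The other MXD family genes gave no common direction. MXD3, the family member linked to proliferating rather than differentiating cells, had 3.83, 3.18 and 3.41 FPKM in the shNC and 4.60, 4.32 and 1.89 FPKM in the shACAT2 libraries. The shACAT2-1 and shACAT2-2 values lay above the shNC range and that of shACAT2-3 lay below it. The log2 fold change was −0.02 (95% interval −0.61 to 0.57, limma adjusted p = 0.976) and became 0.29 without shACAT2-3 (limma adjusted p = 0.166). MXD3 shares 1158 exonic bases (22.5% of its length) with PRELID1 on the opposite strand and 926 (18.0%) with RAB24 on the same strand, and without a known strand setting its level is uncertain. MXI1, also called MXD2, had 4.85, 5.56 and 5.45 FPKM in the shNC and 5.45, 4.94 and 5.83 FPKM in the shACAT2 libraries. These ranges almost coincide, and the log2 fold change was 0.03 with the narrowest interval of the members (−0.20 to 0.26, limma adjusted p = 0.896).

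MNT is a broadly expressed antagonist, and it was the member whose shACAT2 values all lay below the shNC values. It had 3.50, 3.48 and 3.67 FPKM in the shNC and 3.43, 3.30 and 2.16 FPKM in the shACAT2 libraries. The gap between the groups was small, and most of the difference in means came from shACAT2-3. The log2 fold change was −0.22 (95% interval −0.55 to 0.12, limma adjusted p = 0.415) and −0.06 without shACAT2-3 (limma adjusted p = 0.727). MNT shares 1065 exonic bases (12.2% of its length) with the antisense gene AC006435.1, so its counts may hold antisense reads.

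MGA, the large protein that carries a T-box domain beside its MAX-binding region, had 5.30, 6.84 and 6.75 FPKM in the shNC and 2.82, 5.86 and 5.80 FPKM in the shACAT2 libraries. The shACAT2-1 value was far below all others and the remaining values overlapped between the groups. The log2 fold change was −0.37 (95% interval −0.93 to 0.20, limma adjusted p = 0.401), or −0.09 without shACAT2-1 (limma adjusted p = 0.678). With 17651 exonic bases, MGA is the longest gene of the network. Its level in shACAT2-1 was −0.93 from the shNC mean on the log2 scale, where the median of genes over 8000 bases was −0.17; the part of that shift in the MGA value was not tested.

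In all, 1 of the 8 members tested was called higher at a limma adjusted p below 0.05 and 0 were called lower, where 3.30% of the 13832 genes tested were called higher and 1.81% lower (5.10% in either direction, 706 genes, of which 64.6% were higher, or 54.4%, 54.9% and 50.1% after upper-quartile scaling, library-size scaling and with limma-voom). At an unadjusted p below 0.05 there were 3 members, MAX, MXD1 and MXD4, all higher, where 23.5% of all genes passed. The same 3 were called with the replicate block (background 7.67% higher, 4.81% lower and 12.5% in either direction) and with limma-voom (background 4.22% higher, 4.20% lower and 8.42% in either direction). Groups that did not overlap were found for MAX, MXD1 and MXD4 on the higher side and MNT on the lower side among the 8, where 16.2% of all genes tested had all shACAT2 values higher and 14.5% had them lower (30.7% in all). For each of these 4 genes, and for MYCN, the two-sided exact permutation test gave p = 0.1, the smallest p that 3 against 3 libraries allow. By the limits of the study (a log2 fold change beyond 1 either way and an unadjusted p below 0.05), 0 members passed, against 1.50% of all genes.

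**Figure D2:**
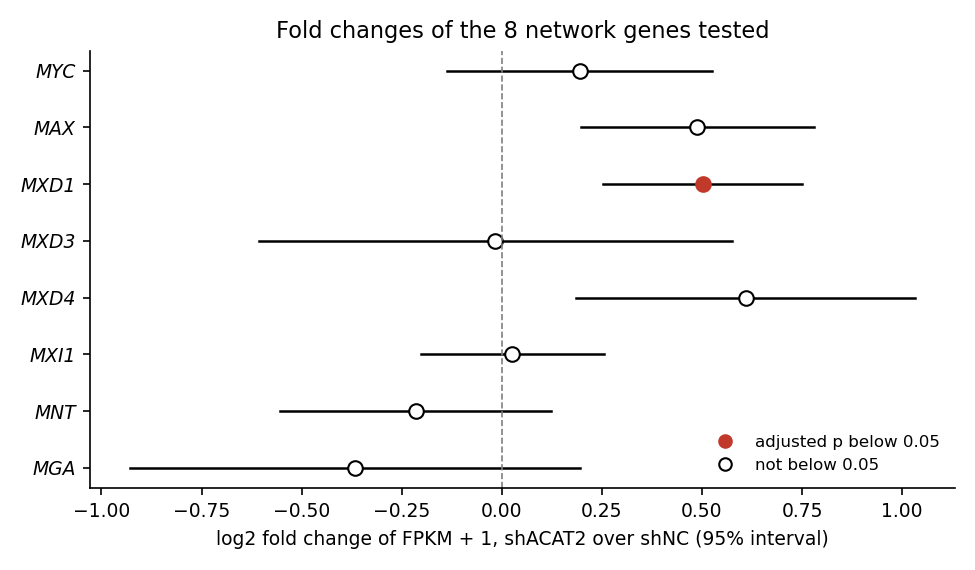
Log2 fold change of FPKM + 1 in shACAT2 over shNC cells for the 8 members tested by limma, with 95% intervals from 3 libraries per group; the filled symbol marks an adjusted p below 0.05. The intervals of MAX, MXD1 and MXD4 lie above 0, those of the other 5 genes include 0, and MXD1 alone passed after adjustment over 13832 genes.

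The balance of MYC paralogues against antagonists was taken as summed FPKM of MYC, MYCN and MYCL over summed FPKM of the 6 antagonists, and gets no test. This ratio was 5.12, 4.40 and 4.25 in the shNC and 4.74, 3.99 and 4.75 in the shACAT2 libraries. The groups overlapped, with means of 4.59 ± 0.463 and 4.50 ± 0.439 (mean ± SD, n = 3), a log2 difference of −0.03. Without MGA, the longest antagonist, the log2 difference was −0.15, and the groups still overlapped. The paralogue sum was 138 ± 12.4 and 158 ± 22.8 FPKM with overlapping groups, and the antagonist sum was 30.0 ± 0.323 and 35.3 ± 4.32 FPKM (mean ± SD, n = 3). The antagonist sums did not overlap, although shACAT2-3, with 30.5 FPKM, lay just above the highest shNC library, with 30.3 FPKM.

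The relations that did part the groups lay inside the network, and were picked after the values were seen. MYC relative to MAX was 12.6, 13.0 and 13.0 in the shNC and 10.5, 9.98 and 10.2 in the shACAT2 libraries. This ratio was much steadier between libraries than either gene, with 12.8 ± 0.219 and 10.2 ± 0.254 (mean ± SD, n = 3), so that MAX transcripts were more abundant per MYC transcript in every shACAT2 library. MXD4 made up 35.1%, 31.4% and 30.4% of the antagonist FPKM in the shNC and 51.6%, 40.7% and 39.1% in the shACAT2 libraries. The share of MXD4 thus lay above the shNC range in each shACAT2 library, most in shACAT2-1, where MGA had its lowest share at 7.26%. MXD1 relative to MNT was 0.505, 0.492 and 0.463 in the shNC and 0.734, 0.972 and 1.34 in the shACAT2 libraries, and the groups were again apart.

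**Figure D3:**
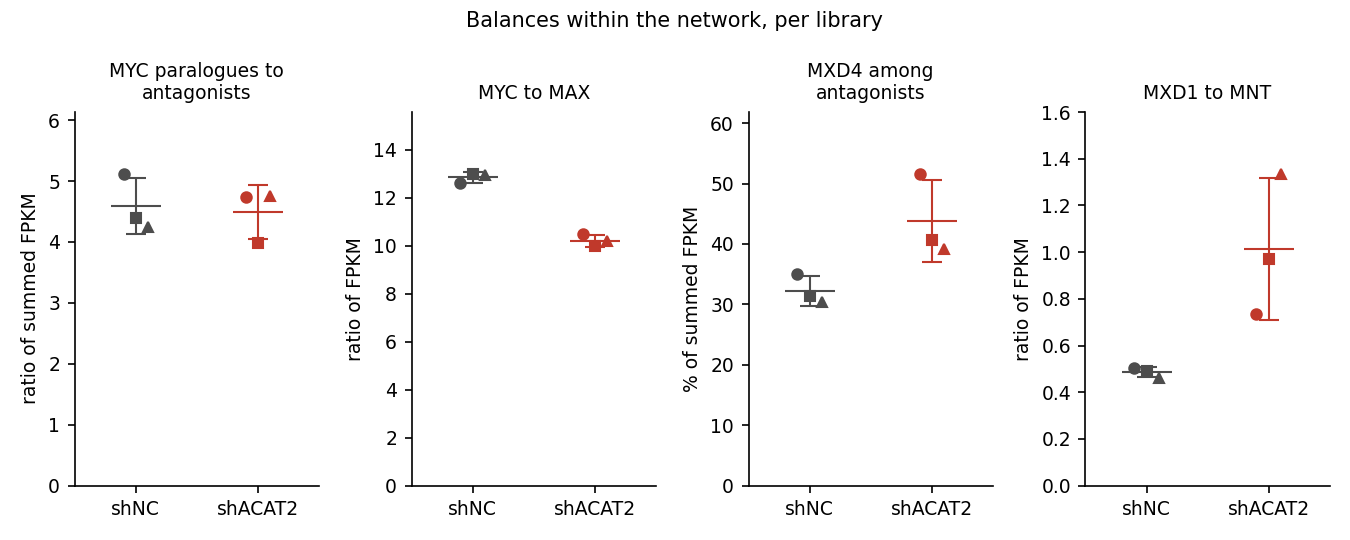
Ratio of summed FPKM of MYC paralogues to antagonists, MYC to MAX, MXD4 as a percentage of antagonist FPKM, and MXD1 to MNT, for each of 3 shNC and 3 shACAT2 libraries (symbols; bars are mean ± SD, axes from 0). The paralogue to antagonist ratio overlaps between groups (4.25 to 5.12 and 3.99 to 4.75), while MYC to MAX lies near 12.8 in shNC and 10.2 in shACAT2 cells.

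Members of the network can themselves carry the motif their dimers bind. The canonical E-box CACGTG, which reads the same on both strands, was searched in RefSeq windows (GRCh38.p14) from 250 bases before to 50 bases after each annotated start, which held 14 windows for 9 of the 10 members (MYC was not matched). MXD4 and MNT had a match in 2 of these 14 windows, where 7.26% of all 35116 windows had one. The MXD4 motif begins 238 bases upstream of the RefSeq start of its window, or 53 bases upstream of the outermost start of the gene in the deposited table, and lies in chr4:2262330-2262359 on the minus strand, and the MNT motif begins 193 or 135 bases upstream by the same measures and lies in chr17:2401236-2401265 on the minus strand. Both are shown on the strand of the gene, with the E-box in capitals, to show the motif in an antagonist with higher and in an antagonist with lower values in shACAT2 cells.
MXD4: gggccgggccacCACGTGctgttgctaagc
MNT: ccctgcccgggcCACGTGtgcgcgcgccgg
A match is a description of these windows, not a binding site.

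Around the network, lists with 184 further genes were examined, chosen with earlier results of these data known. Of these genes, 172 were tested. Over all genes tested, 3.30% were called higher and 1.81% lower (4.22% and 4.20% with limma-voom). At an unadjusted p below 0.05, 23.5% of all genes passed in either direction. Among the 172 list genes, 9 (5.23%) were called higher and 10 (5.81%) lower. After upper-quartile scaling the counts were 8 and 9, with TRRAP, USP28 and CDKN2B no longer called, and after library-size scaling 8 and 10, with USP28 and CDKN2B no longer called. The main counts fell to 3, 2 and 1 higher when shNC-1, shNC-2 or shNC-3 was dropped, to 3 when shACAT2-2 was, and to 1 with the mean of shNC-2 and shNC-3 as 1 library, with 0 lower in each of these fits, in which the calls over all genes also fell from 706 to between 63 and 135. Of these genes, MIR22HG alone kept its call without each library in turn. MLX and its partner MLXIP (MondoA), a parallel branch that senses glucose and can pair with MXD and MNT proteins, had log2 fold changes of 0.21 and −0.17 (limma adjusted p = 0.342 and 0.333), and 0 of the branch passed at an unadjusted p below 0.05 or with limma-voom. Among 17 MYC cofactors tested, 0 were called higher (2 at an unadjusted p below 0.05, 0 with limma-voom) and 2 lower. These were TRRAP and EP400, scaffold and ATPase of the acetyltransferase complex that MYC recruits. TRRAP had 12.8, 12.4 and 12.0 FPKM in the shNC and 6.76, 7.96 and 9.11 FPKM in the shACAT2 libraries, a log2 fold change of −0.59 (SE 0.12, limma adjusted p = 0.038). EP400 fell from 7.44 ± 0.499 to 4.46 ± 0.707 FPKM (mean ± SD, n = 3; log2 fold change −0.64, limma adjusted p = 0.032). Both are long genes (19972 and 18705 exonic bases) and lowest in shACAT2-1, and their calls held without that library (limma adjusted p = 0.039 and 0.037).

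The corepressors that MXD proteins and MNT use had 1 of 14 genes called higher and 1 lower, beside 3.30% and 1.81% of all genes tested. Both are subunits of SIN3-HDAC complexes. ING2, which reads methylated histone H3, rose from 9.98 ± 0.618 to 16.1 ± 2.84 FPKM (log2 fold change 0.63, limma adjusted p = 0.048) and SUDS3 fell from 6.84 ± 0.440 to 4.52 ± 0.424 FPKM (mean ± SD, n = 3; log2 fold change −0.51, limma adjusted p = 0.034). The call of ING2 was lost in 7 of the 14 alternatives, among them the fit without shACAT2-3 (limma adjusted p = 0.059). For the partners of MGA in its Polycomb complex, 0 of 11 genes were called either way (2 higher and 1 lower at an unadjusted p below 0.05, 0 with limma-voom). At that unadjusted limit 23.5% of all genes passed in either direction. Nearest to the threshold were E2F6, the DNA-binding subunit, with a log2 fold change of −0.31 (limma adjusted p = 0.113), and YAF2, with 0.32 (limma adjusted p = 0.165). E2F6 was called lower in 1 of the 14 alternatives, the fit without shACAT2-1 (log2 fold change −0.38, limma adjusted p = 0.047). The median over these 11 genes was 0.15, against 0.016 over all genes tested.

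Regulators of MYC protein stability had 1 of 17 genes called higher and 1 lower, and regulators of MYC mRNA and transcription 0 of 15 higher (0 at an unadjusted p below 0.05, 0 with limma-voom) and 2 lower. Over all genes tested, 3.30% were called higher and 1.81% lower. PIM1, a kinase that phosphorylates MYC and is known to stabilise it, had 5.42, 4.77 and 4.66 FPKM in the shNC and 11.9, 11.0 and 9.72 FPKM in the shACAT2 libraries. No shACAT2 value came near the shNC range, with a log2 fold change of 1.00 (SE 0.11, limma adjusted p = 0.0066, or 0.056 without shNC-3). USP28, a deubiquitinase that spares MYC from degradation, fell from 7.40 ± 0.276 to 4.84 ± 0.727 FPKM (mean ± SD, n = 3; log2 fold change −0.53, limma adjusted p = 0.046). The call of USP28 was lost in 9 of the 14 alternatives, with limma adjusted p of 0.057 after upper-quartile scaling, 0.054 after library-size scaling and 0.068 without shACAT2-3. IGF2BP1 and IGF2BP2, RNA-binding proteins that protect MYC mRNA, fell from 23.8 ± 1.23 to 16.1 ± 0.276 FPKM and from 17.9 ± 0.480 to 12.3 ± 0.686 FPKM (mean ± SD, n = 3), with log2 fold changes of −0.53 and −0.50 (limma adjusted p = 0.025 and 0.029). Among the transcripts near MYC on chromosome 8, 7 of 8 on the list were matched in the table and PVT1, a long noncoding RNA next to MYC, was the 1 above the filter. PVT1 had 22.0, 19.6 and 19.8 FPKM in the shNC and 23.8, 20.0 and 22.3 FPKM in the shACAT2 libraries, and like MYC its groups overlapped (log2 fold change 0.10, limma adjusted p = 0.620).

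Of 82 tested genes that MYC is known to activate, 1 was called higher (1.22%) and 4 lower (4.88%), beside 3.30% and 1.81% of all genes, and their median log2 fold change was 0.06. In ribosome biogenesis, 0 of 34 genes tested were called higher (1 at an unadjusted p below 0.05, 0 with limma-voom) and 1 lower, with a median log2 fold change of 0.06. The gene was NOLC1, a nucleolar chaperone, with 225, 226 and 220.4 FPKM in the shNC and 138, 139 and 128 FPKM in the shACAT2 libraries (log2 fold change −0.72, limma adjusted p = 0.013). In metabolism, 0 of 33 were called higher (4 at an unadjusted p below 0.05, 1 with limma-voom, 2 with the replicate block) and 2 lower, with a median of 0.05. SLC7A5, the transporter of large neutral amino acids, had 239.9, 204 and 200.2 FPKM in the shNC and 124, 103 and 93.3 FPKM in the shACAT2 libraries, a log2 fold change of −1.01 (SE 0.14, limma adjusted p = 0.015). CAD, the enzyme that starts pyrimidine synthesis, fell from 57.8 ± 5.14 to 36.8 ± 2.16 FPKM (mean ± SD, n = 3; log2 fold change −0.63, limma adjusted p = 0.027). In the cell cycle list 1 of 15 was called in each direction, with a median of 0.10. ID2, an inhibitor of differentiation factors, had a log2 fold change of 1.03 (limma adjusted p = 0.011), and E2F2, a transcription factor of S-phase genes, fell from 10.5 ± 0.610 to 6.21 ± 0.550 FPKM (mean ± SD, n = 3; log2 fold change −0.67, limma adjusted p = 0.016).

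**Figure D4:**
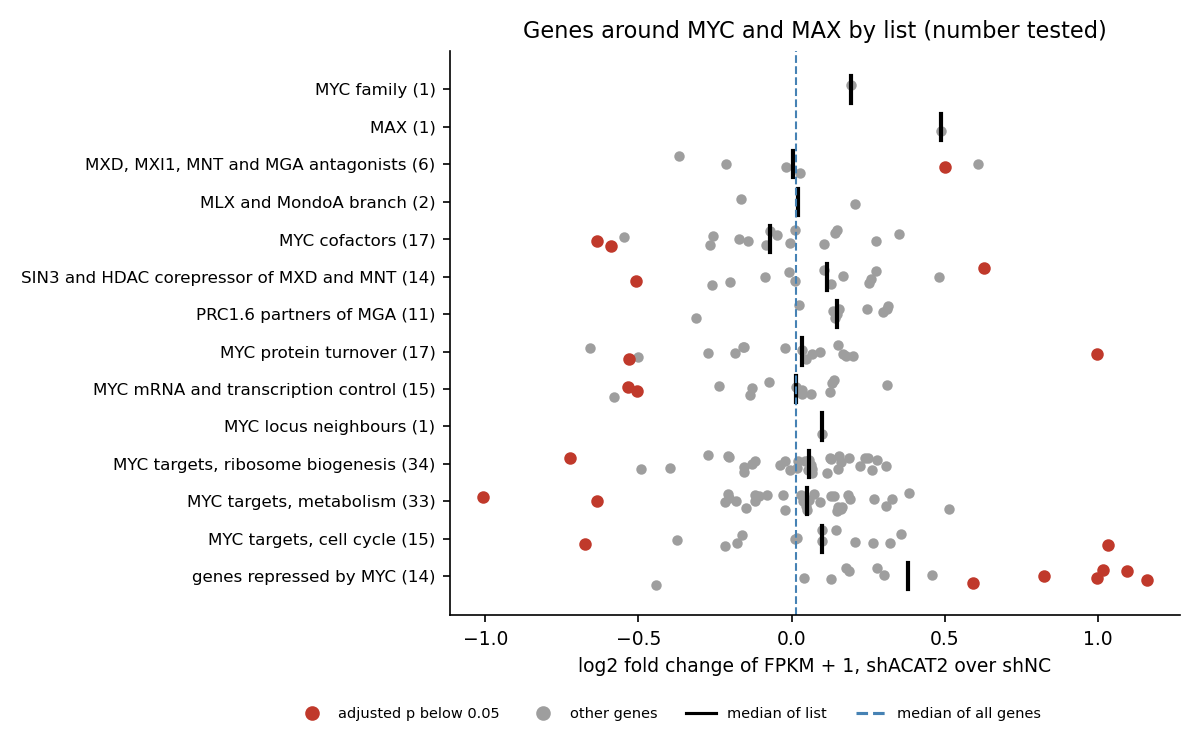
Log2 fold change of FPKM + 1 in shACAT2 over shNC cells for every tested gene of 14 lists; filled red symbols passed an adjusted p below 0.05, black bars are list medians and the dashed line is the median over all genes (0.016). The lists of activated targets centre near that line, while the list of genes repressed by MYC has a median of 0.38. All lists were chosen with earlier results of these data known.

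Genes that MYC-MAX represses, mostly inhibitors of the cell cycle and stress genes, were the list with the most calls. The list was chosen with earlier results of these data known, so its counts beside all genes are a description. Of 17 genes, 14 were tested, 6 were called higher and 0 lower, 13 had a fitted change above 0, and the median was 0.38. Over all genes, 3.30% were called higher and the median was 0.016. At an unadjusted p below 0.05 there were 8 higher and 0 lower, where 23.5% of all genes passed in either direction. With limma-voom there were 6 and 0, where 4.22% and 4.20% of all genes were called. MIR22HG, the host transcript of a microRNA, had 1.93, 1.80 and 2.18 FPKM in the shNC and 5.25, 5.50 and 5.22 FPKM in the shACAT2 libraries, a log2 fold change of 1.09 (SE 0.09, limma adjusted p = 0.0035). NDRG1, a gene of differentiation and hypoxia long known to be repressed by MYC proteins, had 0.466, 0.345 and 0.425 FPKM in the shNC and 2.13, 1.82 and 1.65 FPKM in the shACAT2 libraries. Its log2 fold change of 1.02 (limma adjusted p = 0.012) is understated by the added 1 FPKM, and was 1.94 with 0.1 FPKM added. GADD45A, a DNA damage response gene, had 13.9, 13.2 and 12.6 FPKM in the shNC and 38.6, 32.6 and 23.1 FPKM in the shACAT2 libraries (log2 fold change 1.16, limma adjusted p = 0.021). CDKN2B, the inhibitor p15 that MYC represses through ZBTB17, rose from 3.21 ± 0.385 to 5.35 ± 0.499 FPKM (mean ± SD, n = 3; log2 fold change 0.59, limma adjusted p = 0.030). The other called genes, named after their values were seen, were CDKN1A, the inhibitor p21, with 3.73 ± 0.414 and 7.49 ± 1.73 FPKM (log2 fold change 0.83, limma adjusted p = 0.034), and GADD45B, with 4.77 ± 0.537 and 10.8 ± 3.71 FPKM (mean ± SD, n = 3; log2 fold change 1.00, limma adjusted p = 0.0496). CEBPA was the gene with a fitted change below 0 (log2 fold change −0.44, limma adjusted p = 0.415). The count of 6 became 1 when any shNC library or shACAT2-2 was dropped or shNC-2 and shNC-3 were merged to their mean, 2 with no filter, and 7 with the replicate block.

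**Figure D5:**
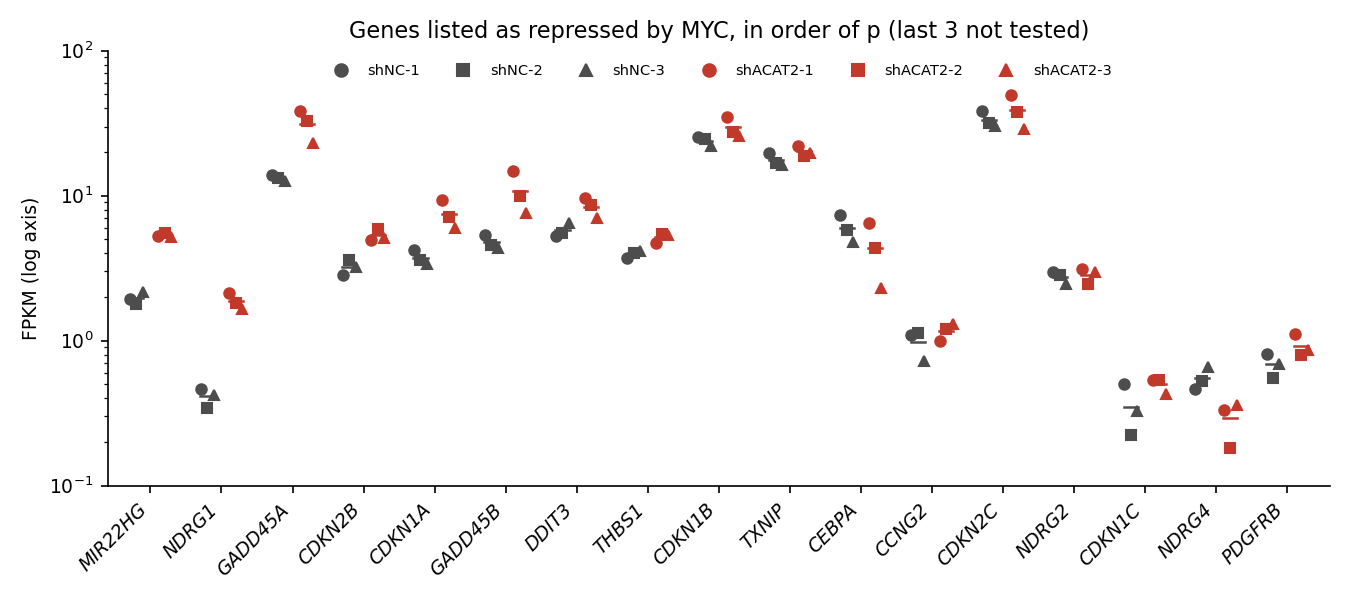
FPKM (log axis) of 17 genes listed as repressed by MYC in the 3 shNC and 3 shACAT2 libraries, ordered by unadjusted p, with short bars at group means; the last 3 genes lay below the filter and were not tested. For MIR22HG, NDRG1, GADD45A, CDKN2B, CDKN1A and GADD45B every shACAT2 library lies above every shNC library.

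Over the 6 libraries, the genes whose log2 level followed MYC most closely were NDUFAF3, SPATC1L, UNC5B, ISY1 and CDH24, with Pearson correlations from 0.996 to 0.998, given as a description over 6 libraries of 2 groups. All 5 were highest in shACAT2-1 and next in shNC-1, as MYC was. Among the members, MXD4 and MAX had correlations with MYC of 0.88 each, MXD3 of 0.44, MXD1 of 0.40, MNT of −0.03, MXI1 of −0.12 and MGA of −0.98. The MGA value rests on its low level in shACAT2-1 and shNC-1, the libraries where MYC was highest.

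The labelled cell type was checked on fixed markers. Of 9 gastric epithelial markers, 7 lay below 1 FPKM in every library, with TFF1 and GKN1 at 0. MUC1, an epithelial mucin, had 1.99, 2.05 and 2.23 FPKM in the shNC and 3.38, 3.78 and 3.40 FPKM in the shACAT2 libraries and was called higher (log2 fold change 0.55, limma adjusted p = 0.025). CDH1, the epithelial cadherin, was lower in level but also higher in every shACAT2 library, with at most 0.222 FPKM in the shNC and 0.608 to 1.15 FPKM in the shACAT2 libraries. All 4 keratins lay below 1 FPKM. Of the mesenchymal markers, VIM, a filament protein, had 292, 246 and 251 FPKM in the shNC and 461, 340 and 417 FPKM in the shACAT2 libraries. Its groups did not overlap (log2 fold change 0.62, limma adjusted p = 0.063, or 0.027 with the replicate block). ZEB1 had 3.66 to 6.51 FPKM and FN1 1.81 to 2.42 FPKM with overlapping groups, and CDH2 had at most 0.0808 FPKM. The 6 fibroblast markers were expressed, with a summed level of 306 to 340 FPKM in the shNC and 443 to 536 FPKM in the shACAT2 libraries. Of them, 3 were called higher, where 3.30% of all genes tested were. Most of that sum came from COL3A1 and COL1A1, and PDGFRA, the receptor on the list, lay lower in every shACAT2 library, with 2.26, 2.62 and 2.50 FPKM in the shNC and 1.35, 1.70 and 1.64 FPKM in the shACAT2 libraries (log2 fold change −0.43, limma adjusted p = 0.070, or 0.043 with the replicate block). Markers of endothelial cells summed to at most 0.444 FPKM and those of leukocytes to at most 1.85 FPKM. The 4 erythroid genes summed to 6.15 to 31.7 FPKM in the shNC and 8.13 to 15.2 FPKM in the shACAT2 libraries, from HBA1 and HBA2, which share near-identical sequence, with 0 of them called (0 at an unadjusted p below 0.05, 0 with limma-voom). The fibroblast sums, VIM, MUC1 and CDH1 were higher in all shACAT2 libraries as MAX, MXD1 and MXD4 were, and their part in those results was not tested. In bulk libraries such as these, more RNA per cell and more cells that express a gene cannot be told apart.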

How the data were processed

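The authors deposited FPKM for 58735 genes in 6 libraries of HGC-27 cells. The submitters' processing notes name HISAT2 2.0.5, featureCounts 1.5.0-p3, DESeq2 1.20.0 and the build hg38. All 58735 gene coordinates and lengths equal those of GENCODE release 29, the strand setting is not given in the sources used here, and no per-sample column was left unused (0). Fragments were recovered from FPKM and gene length, with 100% of values whole within 0.01 fragments, and 14086416 to 16067486 fragments lay on genes per library.

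Groups came from the sample titles. The 13832 genes whose mean FPKM reached 1 in the shNC or the shACAT2 group were fitted as log2(FPKM + 1) with limma (version 3.58.1, R 4.3.3, with trend) and adjusted by Benjamini-Hochberg, with a call at an adjusted p below 0.05. Adding 1 FPKM understates fold changes of genes with low values. The fit was tested on simulated data with independent libraries, which hold none of the library-specific shifts described above. Python 3.11.15 served for the rest. Same-numbered libraries deviated together from their group means (correlations 0.445, 0.126 and 0.171, all above 0.1), so numbers were taken to pair them in an alternative fit, the replicate block. The labels do not say that equal numbers share a batch. Unlike-numbered pairs also reached 0.198 (shNC-2, shACAT2-3) and 0.141 (shNC-3, shACAT2-2), so the pairing of libraries 2 and 3 is not settled. The replicate block is given where it changes a call among the members. For the lists its total counts of calls are given, and not every list gene whose call it changes is named.

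The named genes are the 10 members, ACAT2, up to 4 called genes per direction and list with the smallest p, or the 2 smallest p where none was called, and the 5 genes most correlated with MYC. Members, lists and markers were chosen with earlier results of these data known. The alternatives tried were scaling by upper-quartile or library-size factors, a pseudocount of 0.1, dropping the filter or asking for 10 fragments in every library, the replicate block, limma-voom on recovered fragments, shNC-2 and shNC-3 averaged, the limits of the study, and each library left out in turn.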

Additional observations from a re-analysis of the deposited data

How the results depend on the processing

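The log2 fold change of MYC stayed between 0.08 and 0.27 and was not called in any of the 14 alternatives. That of ACAT2 ran from −1.07 to −0.94 with 1 library left out and lost its call without shNC-3 (−1.01, limma adjusted p = 0.0512). Members called higher numbered 1, against 0 with no filter, 0 with the mean of both close shNC libraries, 0 by the limits of the study, 3 with the replicate block (MAX, MXD1 and MXD4), 3 with limma-voom and 0 to 1 with 1 library left out. The replicate block changed no other call among the members. After upper-quartile or library-size scaling the member called was MAX in place of MXD1, and without shACAT2-3 it was MXD4. List genes called higher numbered 9, against 4 with no filter, 14 with the replicate block, 1 with that mean and 1 to 9 with 1 library left out. List genes called lower numbered 10, against 1 with no filter, 16 with the replicate block, 0 with the mean and 0 to 12 with 1 library left out. Over all genes, 706 were called, against 1727 with the replicate block, 209 with no filter, 1165 with limma-voom, 83 with the mean and 63 to 862 with 1 library left out. The log2 difference of the paralogue to antagonist ratio (−0.03) was −0.33 with MAX in place of the antagonists and −0.08 to 0.05 with 1 library left out. The sign turned for MXD3 without shNC-1 (0.04) and without shACAT2-3 (0.29), over a range from −0.19 to 0.29 with 1 library left out. For MXI1 it turned after upper-quartile scaling (−0.023), library-size scaling (−0.018) and with limma-voom (−0.024), and without shNC-1 or shACAT2-3, over a range from −0.025 to 0.080. The causes were not tested. With 3 libraries a group no exact permutation p below 0.1 can be reached, and MYCN, with 12 to 21 fragments per library, was limited by depth.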

Other observations

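Some genes linked to the network lay below the filter and are given as values. MLXIPL, the glucose-sensing factor ChREBP of the MLX branch, had 0.475, 0.282 and 0.289 FPKM in the shNC and 0.082, 0.062 and 0.166 FPKM in the shACAT2 libraries, so its groups did not overlap and the shACAT2 values were the lower. NDRG4, listed as repressed by MYC, had 0.467, 0.524 and 0.661 FPKM in the shNC and 0.334, 0.181 and 0.359 FPKM in the shACAT2 libraries, the opposite order to that of its relative NDRG1. The noncoding genes near MYC other than PVT1 lay below 1 FPKM in every library and were highest in shACAT2-3, where CASC8 had 0.996 FPKM against at most 0.173 FPKM in the others, and PCAT1 0.744 FPKM against at most 0.272 FPKM. In that library genes silent elsewhere also had 0.778 fragments per kilobase, where no other library exceeded 0.081. The part of this background in these values was not tested. GSDMC had 0 fragments in every library.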
